A study of Mus musculus with 20 samples.

Results

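The genes described here carry or restrain signalling by bone morphogenetic proteins (BMPs) and activins, and were followed over 24 h in fibroblasts exposed to AICAR. They are the Id genes Id1, Id2, Id3 and Id4, the inhibitory Smads Smad6 and Smad7, and the antagonists Fst, Grem1 and Bambi. They were selected on their differences from control cells on these same arrays, so their levels and differences are given as a description, with no p-value. The array table named 17097 mouse genes through probe sets with a single symbol. The 9 genes had 14 such probe sets of 45141 in all, and 13 of the 14 passed the filter on low values described below.

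BMPs, activins and TGF-beta are secreted ligands that assemble type I and type II receptors, which phosphorylate receptor Smads. These Smads join Smad4 and act in the nucleus on target genes, among which the Id genes are the classic BMP targets in fibroblasts and many other cells. Id proteins lack a DNA-binding region and hold E proteins away from their bHLH partners. Smad6 and Smad7 are themselves induced by the pathway and dampen it from inside the cell, while follistatin and gremlin bind ligands outside it and Bambi is a receptor-like protein without a kinase domain.

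The cells were SV40-immortalized mouse embryonic fibroblasts lacking both catalytic subunits of AMPK, Ampkα1 and Ampkα2, in every group, controls included. AICAR is a cell-permeable nucleoside that cells convert into an AMP mimic, and it is best known as an AMPK activator. RNA was profiled at 0 h in control cells without AICAR (3 arrays) and after 1, 2, 4, 12 and 24 h in 1 mM AICAR (3 arrays each) and after 8 h (2 arrays), 20 arrays of the Affymetrix MG-430 PM type in all. No array of wild-type cells was analysed here and control cells were taken only at 0 h, so the time spent in AICAR and the time spent in low-density culture cannot be told apart. Nothing in the labels ties replicate arrays to separate cultures, and p-values therefore measure only array-to-array spread, possibly technical.

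All values are the authors' deposited log2 signals, and a difference of 1 is a 2-fold difference in signal. The array medians lay between 5.16 and 5.32. Probe sets for unrelated control sequences had a median of 3.71 and a 95th percentile of 5.08, which is used as the background level. Of 11 fibroblast markers on the array 8 were above it at 0 h, with vimentin (Vim) at 13.2 and fibronectin (Fn1) at 11.8, while Col1a2 and Lum did not pass the filter. The mean level of the fibroblast list was 7.52 to 7.59 at 24 h and 7.63 to 7.68 at 0 h. Of 6 macrophage markers 2 were above background at 0 h, and the summed linear signal of that list was 235 to 272 at 24 h and 219 to 233 at 0 h. Among its members Cd68 was higher at 24 h by 1.08, Cd14 differed by 0.02, Adgre1 by -0.0033 and Csf1r by -0.21, and Ptprc and Lyz2 did not pass the filter. Markers above background at 0 h also included 4 of 4 for muscle, 3 of 5 epithelial, 1 of 4 endothelial and 1 of 3 adipocyte. The epithelial marker Krt19 read 9.82 at 0 h and differed by -0.28 at 4 h, 0.32 at 12 h and -0.28 at 24 h. The 3′ minus 5′ signal of actin, a measure of RNA integrity, was 0.445 to 0.689 at 4 h, 0.435 to 0.646 at 8 h, 0.435 to 0.542 at 12 h and 0.503 to 0.557 at 24 h, and 0.383 to 0.458 at 0 h. The part of these shifts in the results below was not tested. Whether any difference below comes from fewer cells of a type or from less RNA per cell cannot be told apart in these bulk samples.

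**Figure D1:**
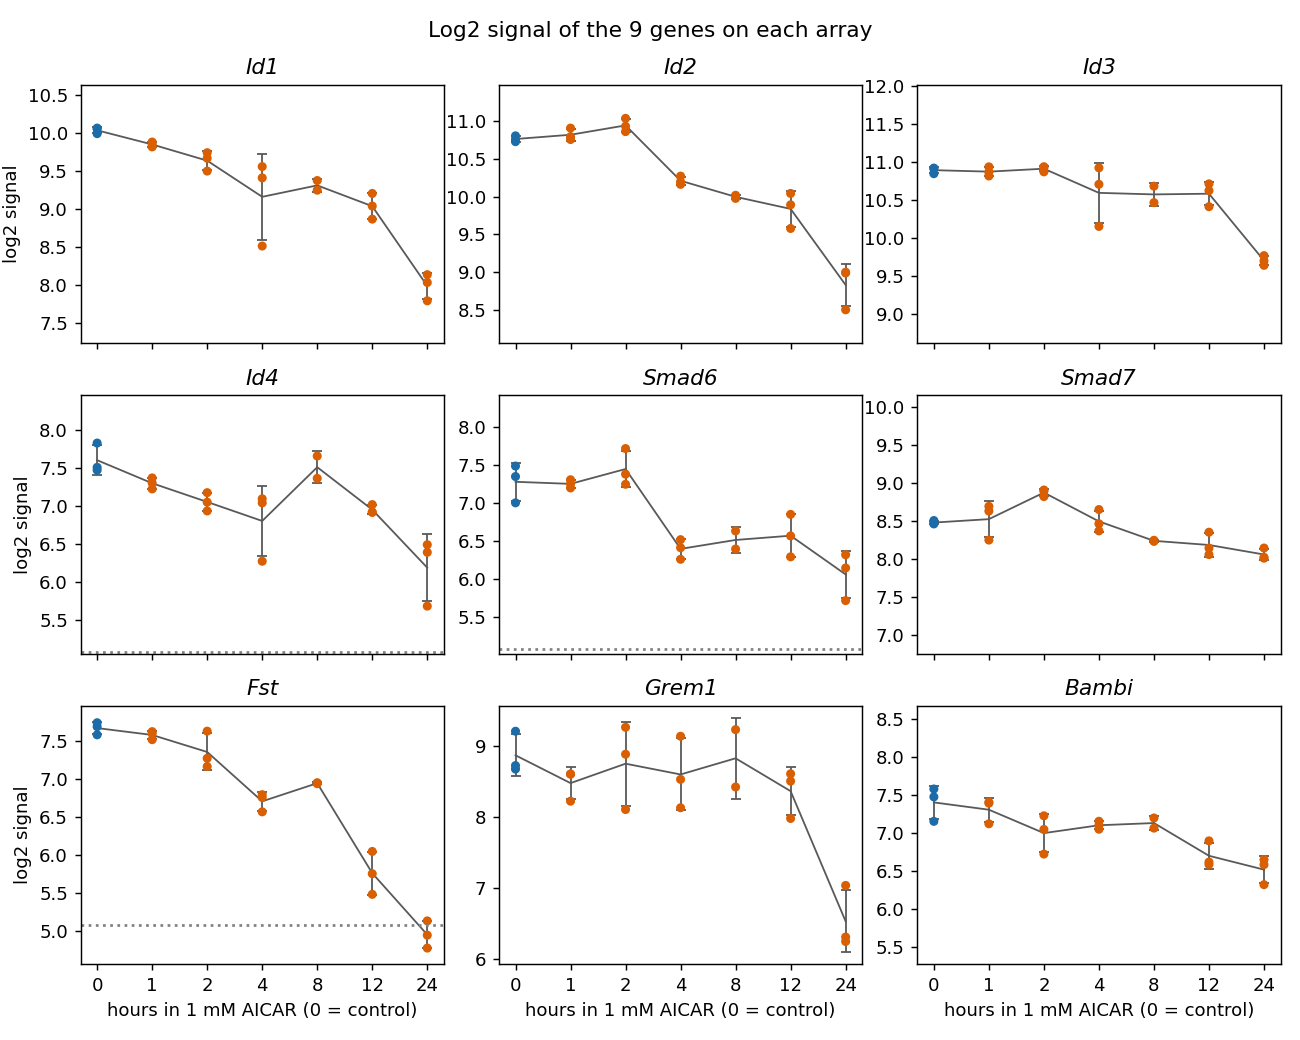
Log2 signal of each of the 9 genes on every array (points) against hours in 1 mM AICAR, blue for control cells at 0 h and orange for AICAR; the line joins the group means, the bars are 1 SD either way, and the dotted line marks background at 5.08. All 9 genes have their lowest group mean at 24 h, and the 24 h points of Fst lie around background, 1 above it and 2 below.

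The Id genes all reached their lowest level at 24 h, but they left the control level at different times. Id1 read 10.06, 9.99 and 10.05 at 0 h, 9.88, 9.82 and 9.85 at 1 h, and 9.50, 9.74 and 9.67 at 2 h. It then read 8.51, 9.56 and 9.41 at 4 h, 9.25 and 9.37 at 8 h, 8.87, 9.04 and 9.20 at 12 h, and 8.03, 8.14 and 7.79 at 24 h. Every AICAR array was below every control array, and the 24 h arrays lay below all others. The order of the group means was 24, 12, 4, 8, 2, 1 and 0 h, and of these neighbours the arrays at 12, 4 and 8 h overlapped.

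Id1 fell by 0.88 ± 0.18 (SE) at 4 h, by 0.73 ± 0.20 at 8 h, by 1.00 ± 0.18 at 12 h and by 2.05 ± 0.18 at 24 h, the last a 4.14-fold lower signal than in control cells. Here and below, rose and fell are used of differences that passed an adjusted p of 0.05 in a limma fit of all 12944 genes that passed the filter. The difference at 1 h was -0.19 and that at 2 h was -0.40, neither past that threshold.

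Id2 had mean levels at 1 and 2 h that were 0.06 and 0.18 above control, neither past the threshold. Its signal was 10.80, 10.72 and 10.75 at 0 h, 10.90, 10.75 and 10.79 at 1 h, and 10.85, 11.03 and 10.92 at 2 h. It was 10.16, 10.27 and 10.19 at 4 h, 10.02 and 9.98 at 8 h, 9.58, 10.04 and 9.89 at 12 h, and 9.004, 8.99 and 8.51 at 24 h. The 2 h mean was the highest, though its arrays overlapped those at 1 h, and every array from 4 h onward lay below every array at 0, 1 and 2 h.

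Id2 fell by 0.55 ± 0.12 at 4 h, 0.76 ± 0.13 at 8 h, 0.92 ± 0.12 at 12 h and by 1.92 ± 0.12 at 24 h. From the 2 h mean to the 24 h mean the signal differed 4.29-fold. The 24 h arrays were also below the 4 h arrays, by 1.37 ± 0.12, which passed the threshold.

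Id3 was the Id gene with the smallest range. Its signal was 10.92, 10.85 and 10.91 at 0 h, and its mean differed from that by -0.02 at 1 h and 0.02 at 2 h. It was 10.15, 10.92 and 10.71 at 4 h, 10.46 and 10.68 at 8 h, 10.41, 10.62 and 10.71 at 12 h, and 9.70, 9.77 and 9.64 at 24 h. The 24 h arrays stood below all others, whereas the groups from 4 to 12 h overlapped one another. Its differences of -0.30 at 4 h, -0.32 at 8 h and -0.31 at 12 h did not pass the threshold, and it fell by 1.19 ± 0.13 at 24 h.

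Id4 was close to its control level at 8 h. Its signal was 7.83, 7.51 and 7.47 at 0 h, 7.31, 7.37 and 7.23 at 1 h, 6.94, 7.05 and 7.18 at 2 h, and 6.27, 7.10 and 7.04 at 4 h. At 8 h the 2 arrays read 7.66 and 7.37, 1 within the span of the controls and 1 just below it, before 6.92, 7.02 and 6.92 at 12 h and 6.49, 6.39 and 5.68 at 24 h. Id4 fell by 0.80 ± 0.20 at 4 h, by 0.65 ± 0.20 at 12 h and by 1.42 ± 0.20 at 24 h, and its difference at 8 h was -0.09 ± 0.22.

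A single library decided part of the 4 h picture. The first 4 h array was more than 0.5 below both other 4 h arrays for Id1, Id3 and Id4, as it was for 126 of the 12944 genes, and more than 0.5 above both for 168 genes. Grem1 was among the latter. Without it the 4 h differences were -0.55 for Id1, which still passed, -0.54 for Id4, which did not, and -0.08 for Id3. That of Grem1 was -0.54 without this array and -0.27 with it, neither past the threshold. Other arrays stood apart by the same measure, with 182 genes below and 199 above on 2 h array 3. The counts were 339 and 165 on 12 h array 3 and 169 and 83 on 24 h array 3. The 3 arrays at 4 h were close for Id2. The call for Id4 at 4 h was also lost without the first control array, and that at 12 h without the first control array or the first 12 h array. That for Id1 at 8 h was lost when any 1 of its 5 arrays was left out, and those for Id1 and Id4 at 4 h when only the arrays at 0 and 4 h were fitted.

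The RefSeq promoter table (build GRCm38.p6) held 5 of the 9 genes, and their 250 bases before the annotated start are shown by when the gene fell. For 4 of the 5 windows that start was also the start of the gene record. Capitals mark GGCGCC, the core of GC-rich BMP-response elements, and GTCT or AGAC, the Smad-binding core read on either strand. The first 3 fell by 4 h. They lie at chr12:25096093-25096342 on the minus strand for Id2, chr13:48260866-48261115 on the plus strand for Id4, and chr9:64022060-64022309 on the minus strand for Smad6.
Id2: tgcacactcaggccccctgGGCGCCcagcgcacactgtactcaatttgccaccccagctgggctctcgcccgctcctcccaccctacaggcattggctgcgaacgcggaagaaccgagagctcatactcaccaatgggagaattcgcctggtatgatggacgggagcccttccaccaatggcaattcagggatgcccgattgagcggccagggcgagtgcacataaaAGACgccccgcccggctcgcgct
Id4: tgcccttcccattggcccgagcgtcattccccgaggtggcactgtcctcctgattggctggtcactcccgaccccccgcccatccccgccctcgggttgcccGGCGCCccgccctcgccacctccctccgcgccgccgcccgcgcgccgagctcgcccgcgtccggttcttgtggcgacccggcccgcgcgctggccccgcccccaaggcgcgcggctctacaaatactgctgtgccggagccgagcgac
Smad6: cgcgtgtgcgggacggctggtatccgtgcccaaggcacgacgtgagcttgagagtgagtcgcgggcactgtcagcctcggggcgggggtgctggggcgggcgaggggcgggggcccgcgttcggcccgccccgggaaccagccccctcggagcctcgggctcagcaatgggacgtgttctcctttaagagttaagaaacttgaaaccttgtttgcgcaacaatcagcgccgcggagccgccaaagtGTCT

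The other 2 windows belong to genes that passed the threshold against control cells only at 24 h, Id3 at chr4:136143572-136143821 on the plus strand and Grem1 at chr2:113758649-113758898 on the minus strand.
Id3: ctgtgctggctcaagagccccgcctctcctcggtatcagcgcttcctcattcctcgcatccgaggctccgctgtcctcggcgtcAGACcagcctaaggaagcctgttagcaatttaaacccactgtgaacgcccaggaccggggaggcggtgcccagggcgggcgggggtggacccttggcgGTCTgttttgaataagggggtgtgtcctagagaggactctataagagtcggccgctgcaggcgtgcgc
Grem1: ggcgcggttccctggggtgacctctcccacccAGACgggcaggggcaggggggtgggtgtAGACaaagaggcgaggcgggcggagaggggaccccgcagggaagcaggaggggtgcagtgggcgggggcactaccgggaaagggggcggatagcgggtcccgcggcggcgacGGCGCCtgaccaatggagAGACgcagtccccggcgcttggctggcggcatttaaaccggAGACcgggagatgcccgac
GGCGCC stood once in the windows of Id2, Id4 and Grem1 and was not found in those of Id3 and Smad6, and 9.59% of 32851 promoter windows held it. GTCT or AGAC was found once in Id2, once in Smad6, 2 times in Id3, 4 times in Grem1 and not in Id4, against 82.9% of all windows. The 2 short motifs cannot overlap each other. The 5 windows had 62.8% to 75.6% G and C, against a median of 52.4% over all windows. Each match is only a run of letters in the window.

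The inhibitory Smads moved by unequal amounts. Smad6, which mainly restrains BMP receptors and Smad1 and Smad5, read 7.49, 7.35 and 7.01 at 0 h, 7.31, 7.20 and 7.25 at 1 h, and 7.38, 7.72 and 7.25 at 2 h. It read 6.52, 6.26 and 6.41 at 4 h, 6.64 and 6.40 at 8 h, 6.57, 6.85 and 6.29 at 12 h, and 6.15, 6.32 and 5.72 at 24 h. The arrays split into a high set at 0, 1 and 2 h and a low set from 4 h onward, with no overlap between the sets, while neighbouring groups within each set overlapped.

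Smad6 fell by 0.88 ± 0.16 at 4 h, 0.77 ± 0.18 at 8 h, 0.71 ± 0.16 at 12 h and by 1.22 ± 0.16 at 24 h. The 24 h mean differed from the 4 h mean by -0.34, which did not pass. Its call at 8 h was lost without the first control array or either 8 h array.

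Smad7, which blocks receptors of both the TGF-beta and the BMP branch, had its highest level at 2 h. It read 8.47, 8.46 and 8.51 at 0 h, 8.69, 8.25 and 8.63 at 1 h, 8.89, 8.91 and 8.82 at 2 h, and 8.65, 8.37 and 8.47 at 4 h. Later it read 8.25 and 8.23 at 8 h, 8.14, 8.35 and 8.06 at 12 h, and 8.02, 8.01 and 8.15 at 24 h. The 2 h arrays lay above all others and the arrays from 8 h onward lay below all controls.

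The 2 h difference of Smad7 was 0.39 ± 0.10 and did not pass the threshold in the fit used here, but it passed in 5 of the 11 other settings applied to every gene. Smad7 fell by 0.30 ± 0.10 at 12 h and by 0.42 ± 0.10 at 24 h, and the 12 h call was lost without any 1 of the controls, or without 12 h array 1 or 3, and also with median centring, no filter or only the groups compared. Its range of 1.76-fold was the smallest of the 9 genes.

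**Figure D2:**
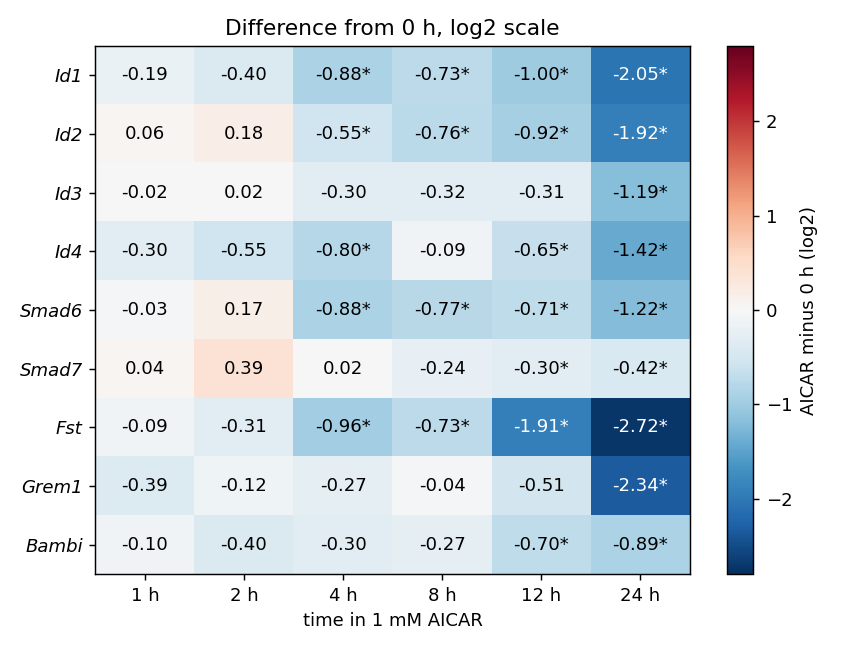
Difference in mean log2 signal from control cells at 0 h for the 9 genes (rows, by role) at each time in AICAR (columns), with the value printed in each cell and an asterisk where the limma fit passed an adjusted p of 0.05. The 24 h column is negative and past the threshold for all 9 genes, from -0.42 for Smad7 to -2.72 for Fst. The genes were picked on these differences, so the asterisks are a description.

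Fst, the first of the antagonists, encodes follistatin, which binds activins and several BMPs. It read 7.69, 7.74 and 7.58 at 0 h, 7.63, 7.52 and 7.60 at 1 h, 7.28, 7.63 and 7.17 at 2 h, and 6.76, 6.57 and 6.80 at 4 h. It then read 6.95 and 6.94 at 8 h, 5.48, 6.05 and 5.76 at 12 h, and 5.13, 4.78 and 4.95 at 24 h. From 2 h onward the order of levels was 2, 8, 4, 12 and 24 h with no overlap between neighbours, while 0, 1 and 2 h overlapped.

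Fst fell by 0.96 ± 0.13 at 4 h, 0.73 ± 0.15 at 8 h, 1.91 ± 0.13 at 12 h and by 2.72 ± 0.13 at 24 h. It also fell between 4 and 12 h, by 0.95 ± 0.13. The 24 h mean of 4.95 was under the background level, with 1 of 3 arrays above it, so the 6.59-fold lower signal at 24 h depends on what this probe set reads without target and is not exact. Its call at 8 h was lost without the first 8 h array and on its second probe set.

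Grem1, whose product gremlin binds BMPs, passed the threshold against control cells at 24 h. Its differences of -0.39 at 1 h and -0.51 at 12 h did not pass, although every array at those times lay below every control array. It read 8.73, 8.68 and 9.21 at 0 h, 8.61, 8.23 and 8.61 at 1 h, 9.27, 8.89 and 8.11 at 2 h, and 9.14, 8.14 and 8.54 at 4 h. At 8 h it read 9.24 and 8.43, at 12 h 8.51, 8.61 and 7.98, and at 24 h 7.04, 6.31 and 6.25. Only the 24 h arrays stood apart from the rest, and they lay 2.34 ± 0.31 below control cells, which passed the threshold.

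Replicates of Grem1 spread widely, with an SD of 0.59 at 2 h and 0.51 at 4 h. At 2, 4, 8 and 24 h the order of its replicates was that of the arrays' interquartile ranges, from the lowest Grem1 value on the narrowest array to the highest on the widest, which was not so at 0, 1 and 12 h. The 2 h arrays, for example, had interquartile ranges of 3.14, 3.07 and 2.79. With the interquartile range as a covariate the Grem1 differences were -2.52 at 24 h and -0.61 at 12 h, both past the threshold, and without it -2.34 and -0.51.

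Bambi changed gradually. It read 7.48, 7.58 and 7.16 at 0 h, 7.40, 7.41 and 7.13 at 1 h, 7.05, 7.23 and 6.73 at 2 h, and 7.05, 7.11 and 7.16 at 4 h. It read 7.20 and 7.07 at 8 h, 6.62, 6.90 and 6.59 at 12 h, and 6.65, 6.59 and 6.32 at 24 h. Neighbouring groups in its order of levels all overlapped, yet every array at 12 and 24 h lay below every control array. Bambi fell by 0.70 ± 0.13 at 12 h and by 0.89 ± 0.13 at 24 h, and its difference at 2 h was -0.40, at 4 h -0.30 and at 8 h -0.27, none past the threshold.

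Counted together, 0 of the 9 genes passed in limma at 1 and 2 h, where 0.479% and 1.47% of all genes tested did. An unadjusted p under 0.05 was found for 0 at 1 h and 5 at 2 h, beside 722 and 1329 of all 12944 genes tested. Of the 5, Smad7 was higher and the others lower. All calls were towards lower signal, for 5 genes at 4 h beside 6.9% of all genes tested, 4 at 8 h beside 2.84%, 7 at 12 h beside 8.88%, and 9 at 24 h beside 14.6%. The arrays lay below all control arrays for 5 of the 9 genes at 4 h and 6 at 8 h, and for all 9 at both 12 and 24 h, which was so for 15.9%, 14.9%, 15.8% and 20% of all genes tested. Over the 7 time groups all 9 passed the moderated F test, as did 48.4% of all genes tested. The median difference of the 9 was -1.42 at 24 h and that of all genes tested was 0.01. Because the genes were picked for these differences, nothing is read from the counts.

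The time courses shared their end point but not their shape. Between 4 and 24 h, 8 of the 9 genes fell, beside 13.3% of all genes called lower between those times. The difference of Smad6, -0.34, did not pass. It passed with quantile normalization, the interquartile range as covariate or the replicate block, and without 24 h array 2. Between 4 and 12 h, 4 fell, Id2, Smad7, Fst and Bambi, beside 9.22% of all genes. Leaving out 1 array of the 6 ended the 12 h against 4 h call for Id2 in 3 cases, with -0.24 without 12 h array 1 in place of -0.37, and for Smad7 and Bambi in 4 cases each, and Id1 gained a call with a difference of -0.45 when the first 4 h array was left out. The fall of Id4 between 4 and 24 h, 0.62 ± 0.20, was between arrays that overlapped, and it was lost without 4 h array 2 or 3 or without 24 h array 3, and was -0.36 without the last of these.

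Across all 20 arrays the levels of Id1 and Id3 had the highest Pearson correlation of any pair among the 9, 0.962, and Id4 and Smad7 the lowest, 0.274. These arrays share their time points, so the correlations describe likeness of time course. Among 4244 genes whose group means spanned at least 0.5, the genes most like Id1 were Clpp, Phldb2 and Eef1e1 (r of 0.955, 0.951 and 0.949), and Phldb2 also led for Id3 at 0.964, before Srm and Wdr46. Id2 was most like Rasa3 (0.982), Dnajb6 and Ptcd3, and Id4 most like 2310011J03Rik (0.951), Rrp8 and 9130008F23Rik. Fst was most like Pcdh18 (0.982), Mtmr10 and Odc1, Grem1 most like Slc6a6 (0.958), Efna5 and Ctnnd2, and Bambi most like Sh3bp4 (0.944), Srprb and Adgra2. For Smad6 the nearest were Bora (0.931), Ccnyl1 and Trub2, and for Smad7 Mnt (0.886), Tbc1d5 and Sipa1l1.

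Id2, Id4 and Fst had more than 1 probe set above the filter. For Id2 a second probe set (1422537_PM_a_at) gave -0.75 at 4 h, -1.06 at 12 h and -2.08 at 24 h, all past the threshold in a fit over probe sets, but -0.32 between 4 and 12 h, which did not pass, while 1453596_PM_at was above background on 0 of 20 arrays and was not tested. For Id4 the probe set 1450928_PM_at gave -0.86 at 4 h and -1.48 at 24 h, and 1423260_PM_at gave -0.42 and -0.65, each past the threshold. At 12 h 1450928_PM_at gave -0.72, which passed, and 1423260_PM_at -0.33, which did not, and 1423260_PM_at did not pass between 4 and 24 h either, at -0.24. The second Fst probe set, 1421365_PM_at, gave -0.92 at 4 h, -1.10 at 12 h and -1.43 at 24 h, all past the threshold, and was above background on 12 of 20 arrays. Unlike 1434458_PM_at, it did not pass at 8 h, at -0.62, between 4 and 12 h, at -0.18, or between 4 and 24 h, at -0.51.

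**Figure D3:**
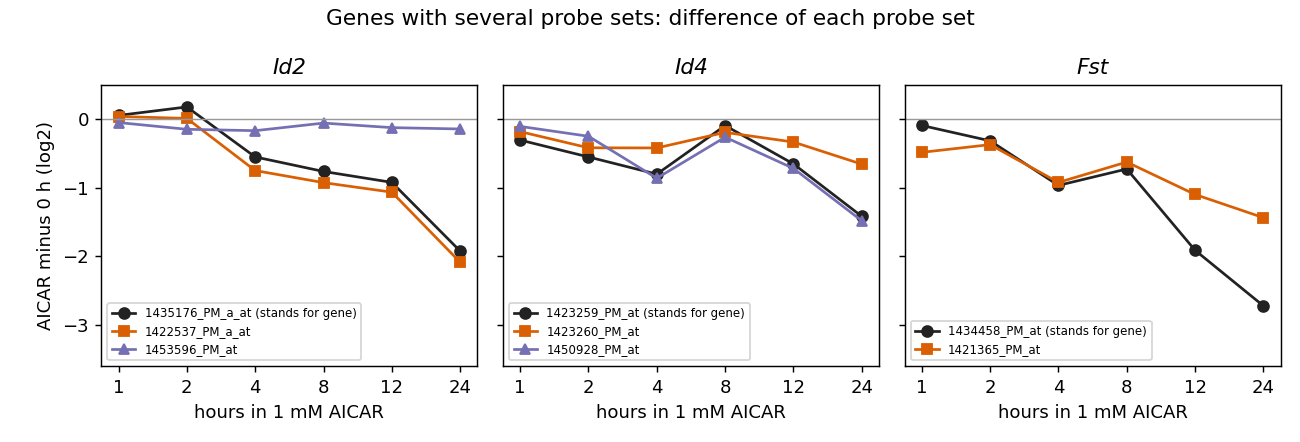
Difference in mean log2 signal from control cells for every probe set of Id2, Id4 and Fst against hours in 1 mM AICAR; the black line is the probe set used for the gene. At 24 h every probe set is below 0, but by unequal amounts, from -0.65 to -1.48 for Id4, and the Id2 probe set near 0 is the one above background on 0 arrays.

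The rest of the pathway had calls in both directions, as had all genes tested. A list of 84 ligands, receptors, Smads and their regulators, other antagonists, other target genes and bHLH partners had 76 genes on the array and 65 that passed the filter. Of these 65, 2 rose and 10 fell at 4 h, where 5.18% of all genes tested rose and 6.9% fell. At 24 h, 16 rose and 10 fell, beside 25.8% and 14.6% of all genes tested. In either direction 40% of the 65 passed then, beside 40.4% of all genes tested. The mix of directions at 24 h was therefore not particular to the pathway. The median difference of the 65 at 24 h was -0.02. Bmp2, Bmp5, the noggin gene Nog and the receptor gene Bmpr1a were among the 11 genes that did not pass the filter.

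Among 9 ligands, 3 fell at 4 h and 1 fell at 24 h, beside 6.9% and 14.6% of all genes tested. Bmp4 read 5.97, 6.16 and 6.54 at 4 h and 7.12, 6.95 and 6.82 at 0 h, with no overlap, and fell by 0.74 ± 0.12 (adjusted p = 0.000363, limma). At 24 h it read 6.96, 6.88 and 6.71, which was 0.63 ± 0.12 above 4 h (adjusted p = 0.00026, limma). Inhba, which encodes the activin A subunit bound by follistatin, read 8.42, 8.10 and 7.85 at 24 h and 9.18, 9.32 and 9.24 at 0 h. It fell by 0.68 ± 0.15 at 4 h (adjusted p = 0.00565, limma) and by 1.12 ± 0.15 at 24 h (adjusted p = 7.62e-06, limma). Tgfb3 fell by 0.46 ± 0.08 at 4 h (adjusted p = 0.000949, limma).

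Of 14 receptors and co-receptors, 0 passed in limma at 4 h. There 4 had an unadjusted p under 0.05, beside 3150 of all 12944 genes tested. At 24 h 4 of the 14 rose, or 28.6%, beside 25.8% of all genes tested. The type I activin receptor gene Acvr1b read 8.62, 8.52 and 8.43 at 24 h and 7.78, 7.73 and 7.55 at 0 h, and rose by 0.83 ± 0.09 (adjusted p = 8.8e-07, limma). The others were the co-receptor genes Tgfbr3, higher by 0.64, and Rgmb, higher by 0.30 with a call that 4 of the 6 single-array omissions ended, and the type I TGF-beta receptor gene Tgfbr1, higher by 0.35. With all probe sets of a gene averaged the 24 h differences were 0.35 for Acvr1b, 0.26 for Tgfbr3 and 0.18 for Tgfbr1, all still past the threshold.

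Of 15 Smads and regulators, 2 rose and 2 fell at 4 h, and 7 rose and 2 fell at 24 h. In either direction that was 26.7% and 60% of the list, beside 12.1% and 40.4% of all genes tested. Tgif1, a corepressor of Smad2 and Smad3, read 7.46, 7.49 and 7.13 at 24 h and 8.52, 8.43 and 8.28 at 0 h. It fell by 0.74 ± 0.10 at 4 h (adjusted p = 0.000118, limma) and by 1.05 ± 0.10 at 24 h (adjusted p = 2.12e-07, limma). Skil, a corepressor that Smads induce, rose by 0.35 at 4 h and by 0.45 at 24 h (adjusted p = 4.17e-05, limma). Ppm1a, a phosphatase reported to act on Smads, rose by 0.29 at 4 h and by 0.59 at 24 h, but its 7 probe sets averaged -0.28 and -0.0165, and Smad3 fell by 0.27 at 4 h, a call lost without any 1 of its 6 arrays. Smad4, the shared partner of receptor Smads, rose by 0.59 at 24 h. Nedd4l, a ubiquitin ligase that acts on Smad2 and Smad3, fell by 0.59 at 24 h (adjusted p = 3.11e-05, limma), and by 0.19 with all its probe sets averaged.

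Among 7 other antagonists, 1 fell at 4 h, and 2 rose and 1 fell at 24 h. These calls were 14.3% and 42.9% of the list, beside 12.1% and 40.4% of all genes tested in either direction. Bmper, whose product binds BMPs, read 7.19, 6.73 and 6.52 at 24 h and 7.96, 8.11 and 7.83 at 0 h, a fall of 1.16 ± 0.14 (adjusted p = 2.72e-06, limma). Twsg1, a BMP-binding modulator, rose by 0.69 (adjusted p = 1.32e-06, limma). Fstl1, a relative of follistatin, fell by 0.26 ± 0.06 at 4 h (adjusted p = 0.0116, limma) and rose by 0.40 ± 0.06 at 24 h (adjusted p = 4.94e-05, limma).

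Of 12 other target genes of the pathway, 3 fell at 4 h, and 2 rose and 4 fell at 24 h. Calls in either direction were 25% and 50% of the list, beside 12.1% and 40.4% of all genes tested. Ccn2, a connective tissue growth factor gene induced by TGF-beta, read 10.13, 10.13 and 10.03 at 24 h and 11.87, 11.90 and 11.82 at 0 h, a fall of 1.77 ± 0.10 (adjusted p = 1.67e-10, limma). Tgfbi, a matrix protein gene also induced by TGF-beta, went the other way at 24 h, with 7.86, 7.67 and 7.33 against 6.45, 6.32 and 6.14 at 0 h, a rise of 1.31 ± 0.15 (adjusted p = 1.51e-06, limma). Its rise was 0.66 when probe sets marked as able to match several transcripts were left out. Msx1 and Msx2, both BMP targets in embryonic tissue, differed by 0.50 and -0.31 at 24 h. The Msx1 difference was 0.08 and no longer past the threshold without those probe sets.

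Of 8 bHLH partner genes, 1 fell at 4 h, and 1 rose and 2 fell at 24 h. These were 12.5% and 37.5% of the list, beside 12.1% and 40.4% of all genes tested in either direction. Among the E protein genes, whose products Id proteins bind, Tcf12 rose by 0.40 at 24 h, Tcf4 fell by 0.56 ± 0.15 (adjusted p = 0.00645, limma) and Tcf3 fell by 0.19 (adjusted p = 0.0493, limma), a call lost without any 1 of 5 of its 6 arrays. With all probe sets averaged Tcf12 was at 0.24, which did not pass, and Tcf4 was 0.92 lower. At 4 h the falls of Ccn2 (0.34), Hes1 (0.45), Tsc22d1 (0.36) and Twist2 (0.37) were each lost without the first 4 h array, without the first control array and with only the groups compared. Those of Ccn2, Hes1 and Tsc22d1 were also lost without the second control array.

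Other times gave smaller or intermediate counts. At 1 h 0 of the 65 passed in limma, with 9 at an unadjusted p under 0.05, beside 722 of all 12944 genes tested. The difference with the lowest adjusted p was that of the Notch and BMP target Hes1, at -0.50 ± 0.13 (adjusted p = 0.148, limma). At 2 h Skil rose by 0.35 (adjusted p = 0.0159, limma) and the type I receptor gene Acvr1 by 0.35 (adjusted p = 0.0466, limma). The Acvr1 call was lost without any 1 of its 6 arrays, and the Skil call without any 1 of the controls or 2 h array 3, with median centring or with only the groups compared. At 8 h 6 rose and 1 fell, beside 7.49% and 2.84% of all genes tested. Tgfbr3 (0.45), Acvr1b (0.35), Ppm1a (0.50), Smad1 (0.35), Smad4 (0.38) and Msx1 (0.35) were the 6, Fstl1 (-0.25) was the other, and none of the 7 calls survived averaging of all probe sets.

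At 12 h 7 rose and 9 fell, beside 14.8% and 8.88% of all genes tested. Tgif1 fell by 1.07 ± 0.10 (adjusted p = 1.9e-06, limma), Ccn2 by 0.77 ± 0.10 (adjusted p = 1.96e-05, limma) and Bmper by 0.41, while Tgfbi rose by 0.89 ± 0.15 (adjusted p = 0.000306, limma), Acvr1b by 0.42 and Twsg1 by 0.37. Hes1, Junb, Smad3, Tgif2 and Tgfb3 were lower by between -0.56 and -0.29, all past the threshold. Leaving out single arrays ended the calls of Junb and Bmper in 4 cases each and those of Tgif2 and Tgfb3 in 2 each, while averaging all probe sets ended those of Smad3 and Acvr1b, and leaving out probe sets marked as able to match several transcripts ended that of Twsg1. Between 12 and 4 h, 6 were higher and 8 lower, beside 18.3% and 9.22% of all genes tested, with Tgfbi at 1.22, Bmp4 at 0.48 and Tgif2 at -0.45. Between 24 and 4 h, 17 were higher and 9 lower, beside 26.9% and 13.3% of all genes tested, with Twsg1 at 0.67, Acvr1b at 0.63, Bmper at -0.87 and Ccn2 at -1.43.

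**Figure D4:**
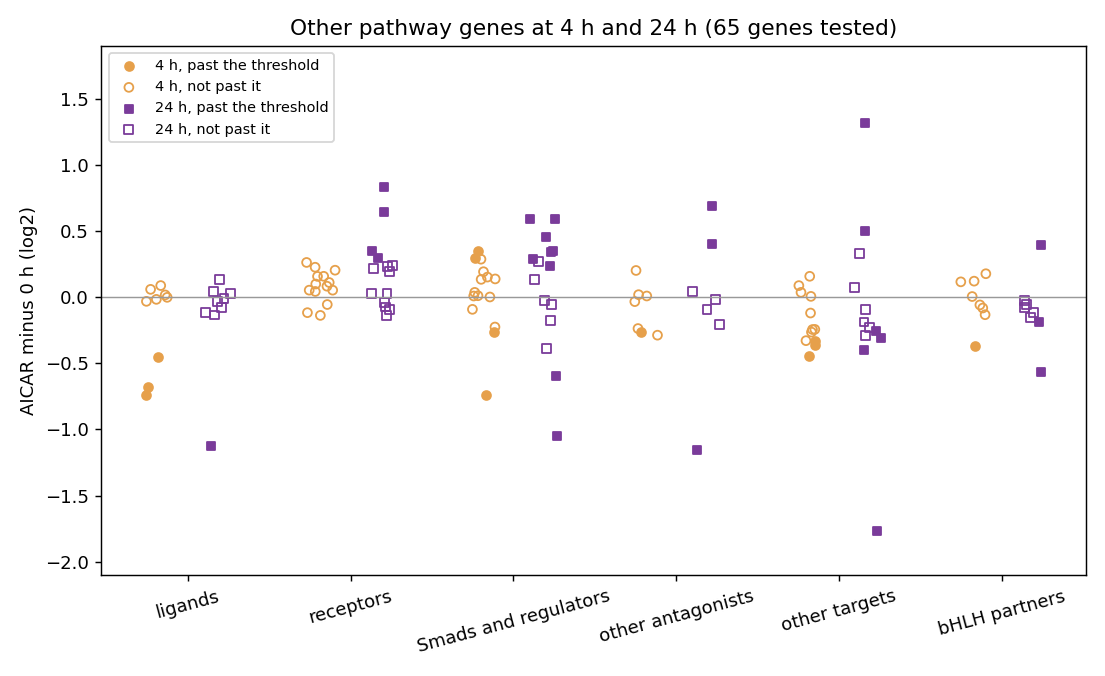
Difference in mean log2 signal from control cells at 4 h and 24 h for the 65 tested genes of the pathway lists, 1 point per gene (circles at 4 h, squares at 24 h), filled where the limma fit passed an adjusted p of 0.05. Each list has points on both sides of 0 at 24 h, and the widest spread is among other targets, from Ccn2 at -1.77 to Tgfbi at 1.31.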

How the data were processed

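Total RNA was hybridised to 20 Affymetrix arrays, biotin-labelled by the standard protocol per the labels' protocols. The values are the log2 signals that the authors deposited, and how they were normalized, and with what software, is not stated in the labels or files. Probe sets were named through the platform annotation: of 45141, 28898 had a single symbol, 551 had several and 15692 were not listed. Each gene was represented by its probe set with the highest mean, and 12944 genes whose highest group mean exceeded the 40th percentile of all values (4.81) were tested.

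All 20 arrays entered 1 limma fit (limma 3.58.1, R 4.3.3) with group as the only term and 13 residual degrees of freedom. Each time was compared with 0 h, and 12 h and 24 h with 4 h. P-values were adjusted by Benjamini-Hochberg over all genes tested, at a threshold of 0.05. The fit was tested on simulated data, but the outcome is not given here and no error rate is read from it. Up to 4 pathway genes per list and time were to be named, by size of the moderated statistic among those past the threshold. More are named in places, as for Smads and regulators at 24 h. For each of the 9 genes the 3 genes of highest Pearson correlation are named. The 9 genes and all gene lists were chosen with earlier results of these data known. Alternatives changed the normalization, filter, probe set rule, variance model, weights, covariates, the replicate block and the arrays included. Replicate numbers are from the labels, which tie them to no shared batch. Same-numbered deviations from the group means correlated with those at 0 h at over 0.1 in every pair at 12 and 24 h only. That does not establish that the arrays were paired. With 2 or 3 arrays a group, their number limits the precision.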

Additional observations from a re-analysis of the deposited data

Results flagged for a closer look

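For 10 genes of the pathway lists the differences from control cells had opposite signs at 24 h and 4 h, and the 24 h minus 4 h contrast of the limma fit passed. Of all genes tested, 26.9% passed that contrast as higher and 13.3% as lower. How many of those also had opposite signs is not given here, so nothing is read from the 10. Against control cells only Fstl1 of the 10 passed at both times, and Junb, Tgfbr2 and Klf10 passed at neither. Among the 9 genes Smad7 alone had opposite signs, -0.42 at 24 h and 0.02 at 4 h, given with no test. Both differences use the same control arrays, so the direct contrast is the test. In 6 genes 24 h was higher than 4 h. Tgfbi differed by 1.64 (adjusted p = 1.29e-07, limma), with 1.31 at 24 h and -0.33 at 4 h. Fstl1 differed by 0.67 (adjusted p = 2.25e-07, limma), and both of its differences, 0.40 at 24 h and -0.26 at 4 h, passed on their own. Junb, an AP-1 factor gene, differed by 0.57, with 0.33 at 24 h and -0.24 at 4 h, a call lost in 3 of 6 single-array omissions. Tgfb3 differed by 0.49 (adjusted p = 7.51e-05, limma). Its difference of 0.03 at 24 h did not pass, so that sign has no weight. The type II TGF-beta receptor gene Tgfbr2 differed by 0.33, with 0.19 at 24 h and -0.14 at 4 h, and the call was lost with all probe sets averaged. Klf10, a TGF-beta-induced factor gene, also ran this way, by 0.32 (adjusted p = 0.0467, limma), a call lost in 5 of 6 omissions, with no filter and with the interquartile range as covariate. The other 4 were lower at 24 h than at 4 h: Tcf4 by -0.68, Nedd4l by -0.60, Msx2 by -0.47 and Tcf3 by -0.19. None of these 4 passed at 4 h, where Tcf4 was at 0.12, Msx2 at 0.16, Nedd4l at 0.0109 and Tcf3 at 0.00479, so the sign at 4 h of the last pair has no weight. The Tcf3 contrast was lost in 5 of 6 omissions.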

How the results depend on the processing

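All 9 genes passed at 24 h under every alternative, including each left-out array. They were picked on these differences, so this only describes the calls. A reversal was counted where a difference changed sign and passed the threshold in the main or the alternative fit. By that rule 0 of their differences reversed. Differences that passed in neither fit could change sign, as that of Grem1 at 2 h, from -0.37 to 0.20 over the left-out arrays. Counts of the 9 genes past the threshold moved by over 1.5 times in these settings. At 2 h (0 genes) the count was 1 with quantile normalization, trended and robust variance or only the groups compared, 2 with the interquartile range as covariate or the replicate block, and 3 with array weights, whose estimation stopped before its convergence tolerance. At 4 h (5 genes) it was 3 with only the groups compared. Between 12 and 4 h (4 genes) it was 1 with median centring and 2 with only the groups compared.

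Pathway counts moved more. At 1 h (0 genes) the count was 1 with the interquartile range or only the groups compared, and 6 with array weights. At 2 h (2 genes) it was 0 with only the groups compared, 1 with median centring, mean of all probe sets or no filter, 6 with quantile normalization or the replicate block, 9 with the interquartile range and 16 with array weights. At 4 h (12 genes) it was 20 with the interquartile range and 38 with array weights. At 8 h (7 genes) it was 0 with the mean of all probe sets, 3 with only the groups compared, 12 with quantile normalization, 13 with array weights or the replicate block, and 16 with the interquartile range. At 12 h (16 genes) it was 10 with median centring. Array weights gave 29 between 12 and 4 h (14 genes) and 46 between 24 and 4 h (26 genes), and only the groups compared gave 5 between 12 and 4 h. How many of all genes tested passed under each alternative is not given here, so nothing particular to the pathway or the 9 genes is read from these changes.

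With each array left out in turn, the 9 genes had 4 to 6 calls at 4 h, 1 to 3 at 8 h, 5 to 7 at 12 h, 9 at 24 h, 1 to 4 between 12 and 4 h and 7 to 9 between 24 and 4 h, and 0 at 1 and 2 h. Pathway genes had 0 at 1 h, 0 to 1 at 2 h, 7 to 10 at 4 h, 1 to 5 at 8 h, 9 to 14 at 12 h, 21 to 26 at 24 h, 9 to 13 between 12 and 4 h and 21 to 25 between 24 and 4 h. Reversals occurred only with the mean of all probe sets, for Ppm1a, a phosphatase gene with 7 probe sets (-0.28 at 4 h, -0.22 at 8 h, -0.14 at 12 h and finally -0.0165 at 24 h), and for Smad1 (-0.0211 at 24 h); the averaging of probe sets that disagree is the only change there.

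The deviations of same-numbered 0 h and AICAR arrays correlated at 0.221, 0.230 and 0.639 at 24 h and 0.137, 0.467 and 0.527 at 12 h. At 1, 2, 4 and 8 h at least 1 pair was under 0.1, and the lowest was -0.295. The narrowest interquartile range was on array 3 at 0, 1, 2, 12 and 24 h and on array 2 at 4 and 8 h. Whether the correlations come from pairing or from array width cannot be told apart. At 24 h the replicate block gave 9 of the 9 genes and 32 pathway genes (26 without it), at 12 h 7 and 20 (7 and 16 without it), and no call of a gene named here at those times against 0 h was lost. With the replicate block the 9 genes gained calls at 2 h for Smad7 (0.39) and Bambi (-0.40), at 4 h and 8 h for Bambi and between 24 and 4 h for Smad6. Without array 3 of a group, whose interquartile range was usually the narrowest, no call at 24 h was lost for the 9 genes. The share of each call that rests on unstated upstream normalization was not tested. Signal near background limits Fst at 24 h.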
